A study of Xenopus laevis with 6 samples.

Results

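The melanin pigment genes are the genes whose products make black and brown pigment or build the organelle that stores it. They were taken by gene name (the rule itself uses no measured value, although it was set with earlier results of these data known): tyr, tyrp1, dct, pmel and mlana, each with the L and S copies that Xenopus laevis carries since its ancestor's genome was doubled, which gives 10 possible genes. Of these, 6 had a row under that name among the 42638 genes of the count table (tyrp1.L, tyrp1.S, dct.L, pmel.L, pmel.S and mlana.L), and 5 of the 28075 genes abundant enough to test were among them, because tyrp1.S did not reach the minimum. The other 4 (tyr.L, tyr.S, dct.S and mlana.S) have no row under those names, and loci annotated as tyrosinase or as a melan-A protein under other names are described further on. RNA was sequenced from whole wild-type embryos of the African clawed frog at Nieuwkoop and Faber stage 35, after 7 days at 14 °C. The study counts day 7 from stage 9, when the tissue explants of its other experiments were cut. The control embryos stayed in 0.1X MMR (a salt solution for amphibian embryos, named for Marc and Ringer), and the others began in the same solution and were moved to 0.75X MMR, which holds more salt, at stage 9. Each medium had 3 replicates, and each replicate was a pool of 10 embryos. The study's methods state, for its experiments in general, that replicates were independent and came from independent batches. The labels do not say whether these pools came from separate clutches, so a p-value here measures the spread between these pools.

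Melanin is made inside melanosomes, where tyrosinase oxidizes tyrosine and the related enzymes dopachrome tautomerase (dct) and tyrosinase-related protein 1 (tyrp1) act on later intermediates. The protein encoded by pmel forms the fibrils on which the pigment is laid down, and melan-A (mlana, also called MART-1) is a small melanosome protein that in human cells is needed for processing of PMEL. In a frog tailbud embryo these genes are known from the retinal pigment epithelium of the eye and from melanophores, the black pigment cells that descend from the neural crest, whereas the pigment granules spread through the early embryo come from the egg. The comparison of the media asks whether more salt in the rearing solution alters the embryo's transcriptome, here for the pigment genes around the stage at which the eye and trunk darken.

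The totals of the 6 pools were 5024957 to 7045215 expected counts (reads assigned to genes, shared out by an estimate where a read matches several genes). Levels are given as CPM, each gene's counts scaled to a common library total, after scaling of the libraries by TMM, a trimmed mean over genes. A gene at 0 in a pool may lie as high as 0.428 to 0.603 CPM, the value of 3 counts, and these limits and all intervals on counts cover counting error only. Between pools of a single medium the chi-square was 2.85 to 4.22 per gene, so they were separate libraries and varied beyond counting. Marker lists for muscle, epidermis, neural tissue, heart, lens, photoreceptors, liver and blood were all detected, as a whole embryo should show. However, alb.S, cryaa.S, hba1.L and hba1.S lay at 0 to 0.668 CPM, and the heart marker nppa.S at 0.177 to 0.980 CPM. The transcription factor mitf, which drives pigment cell genes, was measured at 2.12 ± 0.97 and 2.21 ± 0.50 CPM (SD, n = 3) for mitf.L in 0.1X and 0.75X MMR, and at 2.24 ± 0.62 and 3.06 ± 0.86 CPM (SD, n = 3) for mitf.S. The log2 fold change of 0.75X over 0.1X MMR was 0.014 (SE 0.40) for mitf.L and 0.47 (SE 0.33) for mitf.S. For the other melanophore markers, both copies of sox10, pax3, kit and ednrb, it ran from -0.31 (SE 0.18) for pax3.L to 0.17 (SE 0.17) for ednrb.L. Their mean levels were 9.50 CPM (ednrb.L) to 22.1 CPM (kit.L).

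Among the enzymes, the L copy of tyrp1 was clearly expressed in every pool. Its level was 78.3, 67.4 and 84.4 CPM in the 3 pools of 0.1X MMR, from 549, 415 and 420 counts. In 0.75X MMR it was 76.2, 90.9 and 81.5 CPM, from 461, 513 and 499 counts. The lowest pool was replicate 2 of 0.1X MMR and the highest was replicate 2 of 0.75X MMR, and the ranges of the media overlapped. The gene lies on chromosome 1L at 135105881 to 135116891 in assembly Xenopus_laevis_v10.1, the version to which the reads were aligned. Its mean was 76.7 ± 8.61 CPM in 0.1X MMR and 82.9 ± 7.43 CPM in 0.75X MMR (SD, n = 3), a log2 fold change of 0.11 (SE 0.10).

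Dopachrome tautomerase, the enzyme that converts dopachrome to a carboxylated indole, was represented by dct.L on chromosome 2L (127844114 to 127857486). It had 38.6, 39.3 and 40.2 CPM in 0.1X MMR, from 271, 242 and 200 counts. In 0.75X MMR the values were 40.3, 39.9 and 35.8 CPM, from 244, 225 and 219 counts. The pools were close together, with only replicate 3 of 0.75X MMR below 38 CPM. The means were 39.4 ± 0.784 and 38.7 ± 2.51 CPM (SD, n = 3), a log2 fold change of -0.026 (SE 0.089).

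Both copies of pmel, the fibril protein of the melanosome, were expressed. The level of pmel.L (2L, 144783204 to 144791695) was 123, 91.5 and 112 CPM in the 0.1X pools and 90.7, 111 and 103 CPM in the 0.75X pools, from 548.76 to 862.68 expected counts. Both media had a pool near 91 CPM, and the highest value belonged to replicate 1 of 0.1X MMR. For pmel.S (2S, 129472389 to 129482090) the values were 51.1, 45.7 and 51.7 CPM in the 0.1X pools and 44.5, 50.4 and 48.5 CPM in the 0.75X pools, from 257.41 to 358.32 expected counts. In both copies the lowest pool was replicate 1 of 0.75X MMR and the next was replicate 2 of 0.1X MMR. The mean of pmel.L was 108.9 ± 16.0 CPM in 0.1X MMR and 101.4 ± 10.03 CPM in 0.75X MMR (SD, n = 3), a log2 fold change of -0.10 (SE 0.11). The mean of pmel.S was 49.5 ± 3.30 and 47.8 ± 3.01 CPM (SD, n = 3), a log2 fold change of -0.049 (SE 0.091).

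The melan-A gene mlana.L (1L, 137300388 to 137305008) had the fewest counts of the 5 tested genes. The 0.1X pools gave 49, 26 and 26 counts, or 6.99, 4.22 and 5.23 CPM. The 0.75X pools gave 38, 39 and 40 counts, or 6.28, 6.91 and 6.53 CPM. The pools of 0.75X MMR lay close together inside the range of the 0.1X pools, whose replicate 1 was the highest of all 6. The means were 5.48 ± 1.40 and 6.58 ± 0.316 CPM (SD, n = 3), a log2 fold change of 0.25 (SE 0.22).

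**Figure D1:**
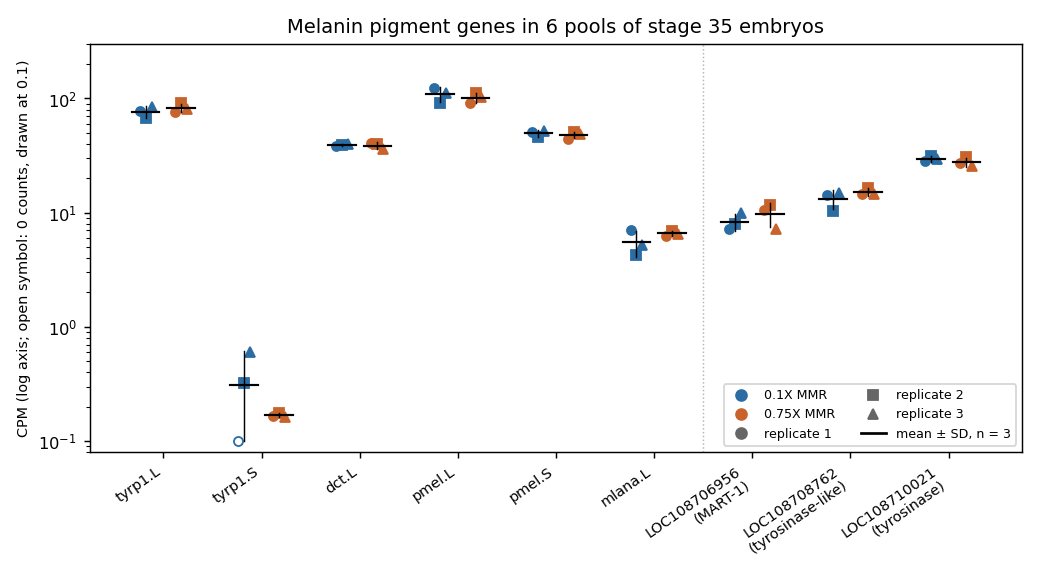
Level of each melanin pigment gene in CPM (log axis) in each pool of 10 embryos, by medium. Each point is a pool, horizontal and vertical lines are the mean and SD of 3 pools, and the open symbol at the bottom is the pool with 0 counts of tyrp1.S, drawn at 0.1 CPM because a log axis has no 0. The loci right of the dotted line are named by number and are not listed genes. The media overlap in every tested gene.

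No melanin pigment gene passed the test between the media. In the quasi-likelihood test of edgeR, with p-values adjusted after Benjamini and Hochberg across the whole table, 0 of the 5 genes had an adjusted p under 0.05, against 0.0178% of all tested genes, and every adjusted p was 1.00. At an unadjusted p under 0.05 the count was also 0 of 5, against 4.39% of all tested genes, and DESeq2 and limma-voom gave 0 of 5 as well. The pools of the media were fully separated in 0 of 5 genes, against 9.73% of all tested genes. The fold change was above 0 in 2 of the 5 genes and below 0 in 3, while 49.6% of all tested genes were above 0. The median size of the log2 fold change was 0.10 over the 5 genes and 0.11 over all tested genes, or 0.078 over the 16535 that averaged at least 50 counts.

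The intervals show which changes these pools could still hide. The 95% confidence interval of the fold change, from limma-voom, was 0.936 to 1.26 for tyrp1.L and 0.855 to 1.13 for dct.L. It was 0.793 to 1.099 for pmel.L and 0.843 to 1.11 for pmel.S, so the 4 more abundant genes had the narrower intervals. For mlana.L the interval ran from 0.870 to 1.67, the widest of the 5. The summed level of the listed genes was 298, 249 and 294 CPM in the 0.1X pools and 258, 299 and 275 CPM in the 0.75X pools, giving means of 280.3 ± 27.5 and 277.5 ± 20.4 CPM (SD, n = 3). In whole embryos, fewer pigment cells and less RNA per pigment cell cannot be told apart.

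**Figure D2:**
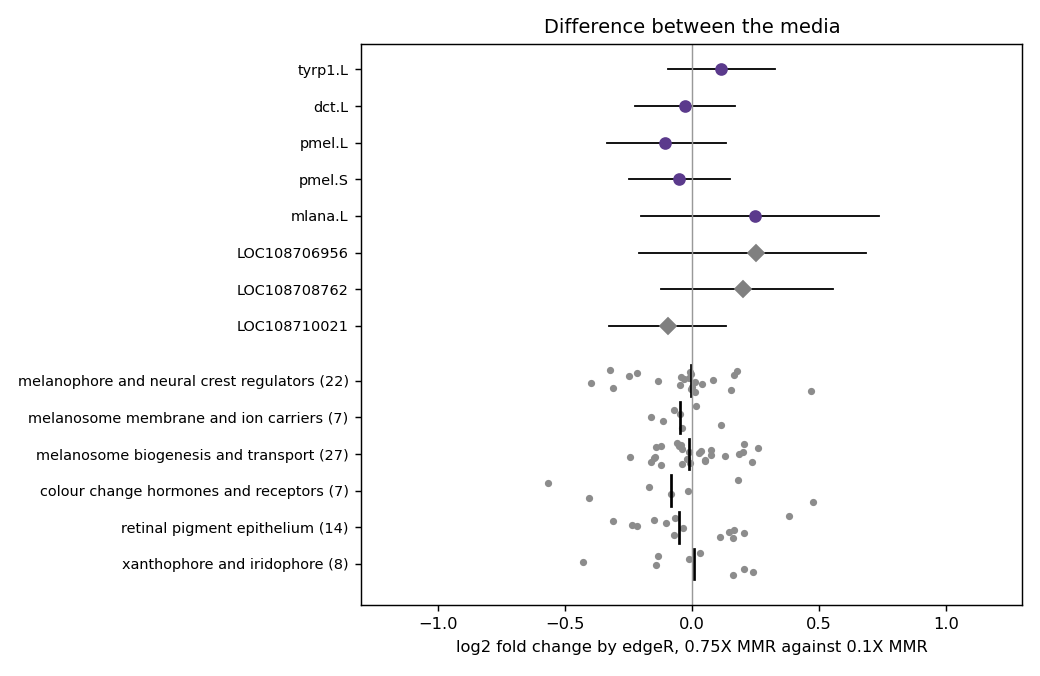
Log2 fold change of 0.75X MMR over 0.1X MMR for the 5 tested melanin pigment genes (circles), 3 loci annotated as tyrosinase or MART-1 (diamonds), and the genes of 6 related lists (grey points, with a black tick at each list's median). Symbols are edgeR estimates and bars are 95% confidence intervals from limma-voom; every drawn interval includes 0.

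The count table also carries loci whose annotated product is a tyrosinase or a melan-A protein but whose name is a RefSeq locus number. They were looked up after the values were seen and are not counted among the listed genes. LOC108710021, annotated as tyrosinase, lies on 2S (159188600 to 159200999), and LOC108708762, annotated as tyrosinase-like, lies on 2L (179133945 to 179147339). Both have ctsc and rab38 of their own subgenome nearby, with the start of rab38 at 0.292 Mb on 2S and at 0.304 Mb on 2L. LOC108710021 had 28.1, 31.5 and 29.6 CPM in the 0.1X pools and 27.2, 30.6 and 25.7 CPM in the 0.75X pools. LOC108708762 had 14.4, 10.4 and 14.8 CPM in the 0.1X pools and 14.6, 16.5 and 14.5 CPM in the 0.75X pools. Messages annotated as tyrosinase, the enzyme of the first step, were thus counted in every pool. LOC108706956, annotated as MART-1, lies on 1S (116381250 to 116388918). It had 7.13, 7.96 and 9.85 CPM in the 0.1X pools and 10.6, 11.7 and 7.19 CPM in the 0.75X pools, so its pools overlapped between the media. The log2 fold changes of the 3 loci were -0.093 (SE 0.10), 0.20 (SE 0.15) and 0.25 (SE 0.20) in the order given, and 0 of 3 had an unadjusted p under 0.05 by edgeR, against 4.39% of all tested genes.

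The surroundings of the genes differ in how far they match between the subgenomes. Both pmel copies lie between cdk2 and dgka. On 1L, mlana.L lies 2.19 Mb from tyrp1.L, and on 1S the MART-1 locus lies 2.13 Mb from tyrp1.S. Both melan-A loci are close to kiaa2026, uhrf2 and ric1 of their own subgenome. On 2L, dct.L follows gpr180.L. On 2S the next protein-coding genes in the annotation after gpr180.S are tgds.S and then gpc6.S, so no dct gene is annotated at that place.

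For pmel, the L copy had more counts than the S copy in all 6 pools. The ratio of L to S counts was 2.41, 2.00 and 2.16 in the 0.1X pools and 2.04, 2.19 and 2.12 in the 0.75X pools. The mean log2 ratio was 1.10 ± 0.0945 (SD, n = 6), and an exact two-sided permutation test that flips the sign of the ratios gave p = 0.03125, the smallest that 6 pools allow, also after adjustment over the 2 gene pairs. These are ratios of counts, not of counts per length, since transcript lengths were not used here. The S copy held 31.6% of the pmel counts (95% exact binomial interval 30.4% to 32.8%, for counting error only). In single pools, each with 815 to 1221 pmel counts, its share was 29.3% to 33.3%. That interval is for the counts of all 6 pools together, so it does not measure the counting error of a single pool. The ratio was 1.13 ± 0.13 in 0.1X MMR and 1.08 ± 0.053 in 0.75X MMR on the log2 scale (SD, n = 3), a difference of -0.046 with p = 0.7 by an exact permutation test, whose smallest possible p is 0.1. Of the 7420 L and S pairs in the table with a tested copy, 27.1% had a log2 ratio of summed counts at or above that of pmel, and their median was 0.36.

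The pair of tyrp1 was far more uneven. The S copy (1S, 114251615 to 114261166) had 0, 2 and 3 counts in the 0.1X pools and 1, 1 and 1 in the 0.75X pools, or 8 counts in all against 2857 for the L copy. Its share of the tyrp1 counts was 0.279% (95% exact binomial interval 0.121% to 0.549%). The L copy thus had 357 times as many counts, with a counting interval of 181 to 827. Only 26 of the 7420 pairs, or 0.350%, had a ratio of summed counts at or above that of tyrp1. With 1 pool at 0 and only 1 reaching 3 counts, a difference of tyrp1.S between the media was not detectable at this depth. The mean log2 ratio with a pseudocount of 0.5 was 8.24 ± 1.10 (SD, n = 6), with p = 0.03125 by the same exact permutation test. It was 8.13 ± 1.72 in 0.1X MMR and 8.35 ± 0.080 in 0.75X MMR (SD, n = 3), with p = 1 by an exact permutation test between the media.

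**Figure D3:**
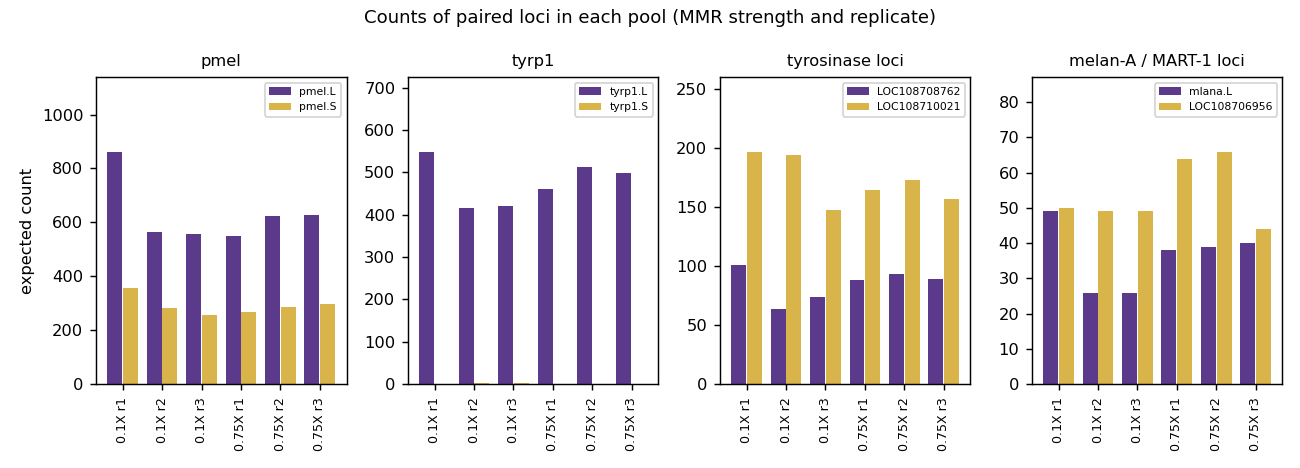
Expected counts (vertical axes from 0, a scale for each panel) of the copies of pmel and tyrp1, the loci annotated as tyrosinase and the melan-A loci in each pool, named by MMR strength and replicate (r1 to r3). Each bar is the count of a locus in a pool. Bars of tyrp1.S, at 0 to 3 counts, are too low to see, pmel.L holds 66.7% to 70.7% of its pair's counts, LOC108708762 holds 24.8% to 36.1% and mlana.L holds 34.7% to 49.5%.

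Where the copies are alike in sequence, a short read can match both, and then the level of a single copy rests on an estimate. The counts of pmel.L and pmel.S were not whole numbers in any pool, but their sums were whole in 6 of 6 pools to within 0.011 counts. The same held for the loci annotated as tyrosinase. For tyrp1 and for the melan-A loci, each copy's counts were whole in 6 of 6 pools. Over all pairs, 2216 of 7420 had fractional counts in every pool and 92.8% of these summed to whole counts, so the division of reads seen at pmel was shared by many pairs. The pmel and tyrosinase copies are therefore less certain one by one than as sums. The sum of the pmel copies was 158.4 ± 19.0 CPM in 0.1X MMR and 149.2 ± 13.0 CPM in 0.75X MMR (SD, n = 3). The sum of the tyrosinase loci was 42.9 ± 1.31 and 43.1 ± 3.63 CPM (SD, n = 3). In 0.1X MMR replicate 2, LOC108708762 had 24.8% of the tyrosinase counts, and in the other 5 pools it had 33.4% to 36.1%.

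The pools did not rank the genes in one order. Replicate 2 of 0.1X MMR was among the 2 lowest pools in 4 of the 5 genes, with tyrp1.L at 84.5% and mlana.L at 70.1% of its mean over the pools. Replicate 1 of 0.75X MMR was among the 2 lowest in 3 of 5, with pmel.L at 86.3% of its mean. In dct.L, by contrast, replicate 1 of 0.75X MMR was the highest pool, and replicate 2 of 0.75X MMR was among the 2 lowest in 0 of 5 genes. Beside these, the summed level of the photoreceptor markers, whose cells adjoin the pigmented layer of the eye, was 232, 199 and 202 CPM in the 0.1X pools and 167, 221 and 215 CPM in the 0.75X pools. That of the retinal pigment epithelium list was 185, 187 and 183 CPM and 175, 187 and 187 CPM. Both lists were lowest in replicate 1 of 0.75X MMR. The genes of the retinal pigment epithelium list did not share this order. Its most abundant gene, stra6.L, was lowest in that pool (52.9 CPM, against 61.3 to 67.0 CPM elsewhere). By contrast, rlbp1.S was highest there (20.6 CPM, against 14.3 to 20.4 CPM elsewhere). Of the other marker lists, the lens markers were highest in that pool (113 CPM, against 94.7 to 107 CPM elsewhere). Lowest there were the heart markers (154 CPM, against 162 to 185 CPM) and the liver markers (2016 CPM, against 2276 to 2860 CPM). The muscle, blood, epidermis and neural lists were neither highest nor lowest in that pool. The part of these lists in the pigment gene levels was not tested.

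**Figure D4:**
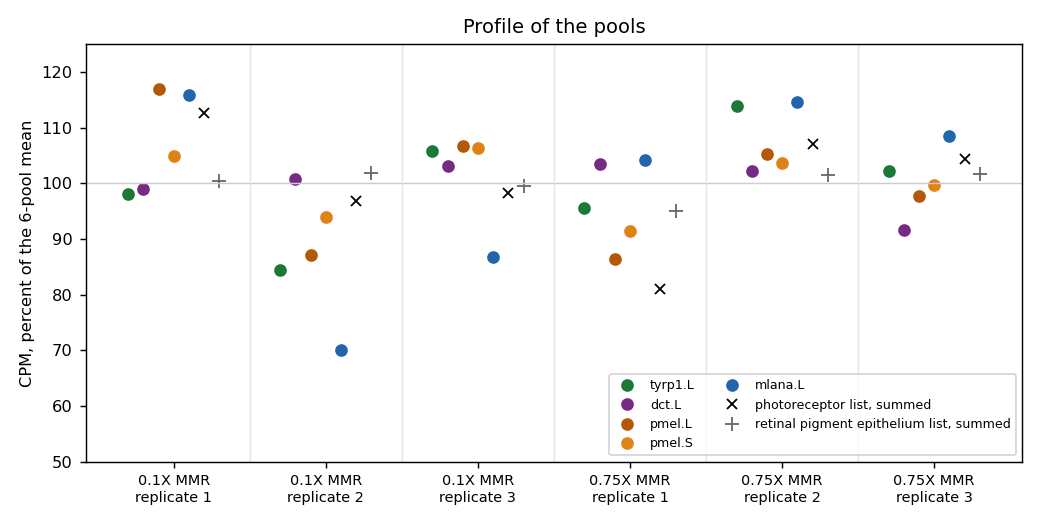
Level of each tested melanin pigment gene in each pool as a percent of its mean over the 6 pools, with the summed photoreceptor (crosses) and retinal pigment epithelium (plus signs) lists. The lowest point is mlana.L in 0.1X MMR replicate 2 at 70.1%, and dct.L stays between 91.7% and 103%.

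The spread between pools differed from gene to gene. The coefficient of variation (CV) of CPM in 0.1X and 0.75X MMR was 11.2% and 8.97% for tyrp1.L, where counting alone would give 4.66% and 4.51%. It was 14.7% and 9.89% for pmel.L, against 3.89% and 4.08% from counting. In these 2 genes the CV was above the counting value in both media, and pmel.L had the highest CV among the 4 genes that averaged at least 50 counts. For pmel.S it was 6.65% and 6.29%, close to the 5.78% and 5.94% that counting gives. The counting values of pmel.L and pmel.S leave out the error from dividing shared reads between these copies, so they are only approximate. For dct.L the CV was 1.99% and 6.50%, below the counting values of 6.49% and 6.60%. For mlana.L it was 25.5% and 4.80%, around counting values of 17.2% and 16.0%. The SD of the authors' adjusted log2 CPM, put as a percent, is another measure. By that SD the spread was 6.80% for tyrp1.L in 0.1X MMR and 2.97% for dct.L in 0.75X MMR. The median CV over all tested genes at or above 50 counts was 8.70% in 0.1X MMR and 8.30% in 0.75X MMR. With 3 pools a CV is itself imprecise, and no test of these differences was made.

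**Figure D5:**
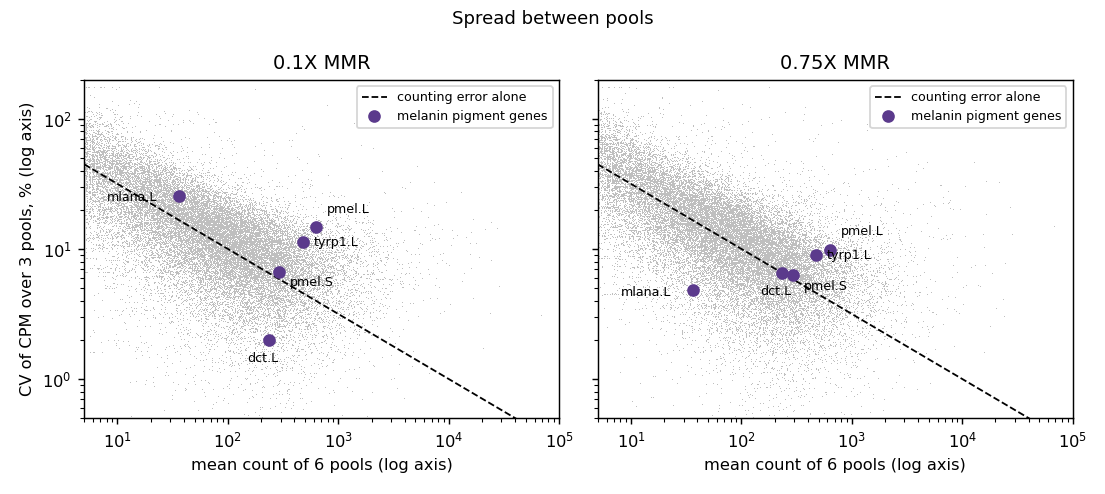
Coefficient of variation of CPM over the 3 pools of each medium against the mean count over the 6 pools, both on log axes, for all tested genes (grey) and the melanin pigment genes (purple). The dashed line is the variation that counting alone gives. In both media tyrp1.L and pmel.L lie above it and pmel.S lies just above it. By contrast, mlana.L lies above it in 0.1X MMR and below it in 0.75X MMR.

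The wider pigment pathway was followed through 6 lists with 95 genes in the table, of which 85 were tested. By edgeR, 0 of the 85 had an adjusted p under 0.05 and 0 had an unadjusted p under 0.05, against 0.0178% and 4.39% of all tested genes. The fold change was above 0 in 34 of the 85 and below 0 in 51, where 49.6% of all tested genes were above 0. The lowest unadjusted p was 0.0522, for pax7.S, a transcription factor of yellow pigment cells in fish, which had 7.50 ± 1.46 CPM in 0.1X MMR and 5.57 ± 0.32 CPM in 0.75X MMR (SD, n = 3). The genes with values below are the 4 of each list with the highest mean CPM, and each value is a mean ± SD over 3 pools, 0.1X MMR first. Of these 24 genes, tpcn2.L, myo5a.S, pomc.L and spr.L had pools that did not overlap between the media, against 9.73% of all tested genes.

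Upstream of the enzymes stand the regulators of neural crest and melanophores, of which 22 were tested, with a median log2 fold change of -0.0052. The neural crest transcription factor tfap2a.L had 41.0 ± 2.83 CPM in 0.1X MMR and 39.6 ± 1.65 CPM in 0.75X MMR, and its S copy had 28.3 ± 3.76 and 28.9 ± 2.21 CPM. The ligand of the Kit receptor, kitlg.L, had 35.3 ± 3.58 and 34.2 ± 0.393 CPM. The endothelin receptor gene ednrb2.S, whose counterpart in birds guides migrating pigment cells, had 26.6 ± 1.84 and 26.6 ± 0.923 CPM. These means differed between the media by less than the SD of the 0.1X pools.

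Inside the melanosome act the carriers and channels, of which 7 were tested, with a median log2 fold change of -0.049. The copper pump atp7a.L, which in mammals loads tyrosinase with its metal, had 51.6 ± 2.96 and 52.3 ± 5.22 CPM. The cation channel tpcn2.L had 15.2 ± 0.313 and 14.5 ± 0.322 CPM, with a log2 fold change of -0.069 (SE 0.12). The receptor gpr143.L, mutated in human ocular albinism, had 14.7 ± 2.25 and 13.2 ± 0.579 CPM. The transporter slc45a2.L, mutated in a human oculocutaneous albinism, had 11.7 ± 2.81 and 11.3 ± 1.70 CPM. The largest log2 fold change in either direction within this list was -0.16, that of gpr143.L.

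For melanosome biogenesis and transport, 27 genes were tested, with a median log2 fold change of -0.011. The subunits of the AP-3 adaptor, which sorts cargo to lysosome-related organelles, had 130.1 ± 5.28 and 134.8 ± 7.23 CPM for ap3d1.L, 130.9 ± 5.73 and 129.0 ± 3.37 CPM for ap3d1.S, and 69.8 ± 8.67 and 72.5 ± 7.53 CPM for ap3b1.L. The motor gene myo5a.S, which moves melanosomes along actin, had 91.6 ± 0.903 and 88.9 ± 1.21 CPM. Genes of this list act in many cell types besides pigment cells.

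The hormones and receptors of color change were the least abundant list, with 7 of 13 genes tested and a median log2 fold change of -0.083. The prohormone convertase pcsk2, which cuts the precursor of melanocyte-stimulating hormone, had 28.2 ± 3.14 and 26.7 ± 0.758 CPM for pcsk2.L and 6.72 ± 1.24 and 6.59 ± 0.552 CPM for pcsk2.S. That precursor, pomc.L, had 2.52 ± 0.165 and 3.52 ± 0.928 CPM, a log2 fold change of 0.48 (SE 0.29). The receptor for melanocyte-stimulating hormone on pigment cells, mc1r.S, had 1.76 ± 0.496 and 1.57 ± 0.402 CPM. None of the 4 passed the test.

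Among the genes of the retinal pigment epithelium, 14 of 16 were tested, with a median log2 fold change of -0.050. The retinol receptor stra6.L had 64.8 ± 1.11 and 60.4 ± 7.07 CPM, and the transcription factor otx2.L had 19.3 ± 0.806 and 18.4 ± 2.16 CPM. The retinoid carrier rlbp1.S had 16.7 ± 3.26 and 19.3 ± 1.15 CPM, and the retinoid isomerase rpe65.S had 15.2 ± 0.624 and 16.3 ± 2.31 CPM. Among the genes of the yellow and the reflecting pigment cells, 8 of 10 were tested, with a median of 0.0093. The scavenger receptor scarb1, whose bird counterpart takes up carotenoid pigments, had 35.2 ± 3.47 and 32.0 ± 4.13 CPM for scarb1.S and 11.9 ± 4.26 and 11.8 ± 1.79 CPM for scarb1.L. The transcription factor pax7.L had 9.76 ± 1.48 and 8.86 ± 1.15 CPM. The pteridine enzyme spr.L had 17.1 ± 0.504 and 20.1 ± 1.60 CPM, a log2 fold change of 0.24 (SE 0.12), which did not pass the test.

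The genes whose pattern over the 6 pools was most like the summed melanin pigment genes were found by the root mean square difference of their mean-centred log2 CPM among 19580 genes of at least 5 CPM. They were LOC108707025 (matrix metalloproteinase-14) at 0.0254, txndc5.S at 0.0280, trappc2.L at 0.0316, bri3bp.L at 0.0332 and hsph1.S at 0.0357. The median of all candidates was 0.169. These 5 genes were picked as the closest of 19580 candidates over only 6 pools, and a link to the pigment genes was not tested. The pigment genes themselves lay between 0.0401 for pmel.S and 0.192 for mlana.L, so mlana.L was farther from the sum than the median candidate, although each pigment gene is part of the sum.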

How the data were processed

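Stranded, rRNA-depleted total RNA from whole embryos was sequenced as single 75-nucleotide reads. Per the labels and the study's methods, the authors trimmed reads with fastp, aligned them with STAR to genome version 10.1 and estimated expression with RSEM, and the deposited expected counts are not normalized. A second deposited table holds log2 CPM that the authors normalized with TMM and adjusted for surrogate variables, and it was used only as an alternative.

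Expected counts were rounded, and genes over 0.6 CPM in at least 3 pools were tested with edgeR 4.0.16 (TMM, medium as the only term, FDR limit 0.05). Intervals came from limma-voom (limma 3.58.1). DESeq2 1.42.0, other scalings, no filter, a replicate block and leaving out each pool were alternatives. The tests were checked on simulated data in which 200 genes were changed 2-fold. Of these, edgeR recovered 143, limma-voom 139 and DESeq2 119, with 10, 11 and 2 false calls. Of the 56 changed genes with a mean count of at least 200, they recovered 56, 56 and 55. The simulated counts had a spread set by the mean level alone, and changes smaller than 2-fold were not simulated. Ratios of L to S counts were tested by exact sign flips in Python 3.11.15 with scipy 1.17.1. They were planned per transcript length but were computed from counts, because lengths were not used here. Pathway genes were named as the 4 of highest mean CPM in each list, and the 5 most similar profiles were named. The genes pax7.S, mitf, sox10, pax3, kit and ednrb and the loci named by number were added after their values were seen. The order of the marker lists over the pools was also described after their values were seen. Of the tested genes, 28074 matched the RefSeq list of the same assembly. The members, lists and tests were chosen with earlier results of these data known.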

Additional observations from a re-analysis of the deposited data

How the results depend on the processing

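The alternatives were DESeq2 size factors, no filter, DESeq2, limma-voom with and without 2 surrogate variables, the replicate block and L and S counts summed. Over these the median log2 fold change of the pigment genes lay between -0.037 and 0.042. Those ends came from other sets of genes, since no filter added tyrp1.S and summing merged the copies of a gene. In the fits on the same tested genes the median lay between -0.030 and -0.024. In all of these fits 0 melanin pigment genes and 0 genes of the related lists passed an adjusted p of 0.05. Leaving out each pool in turn also gave 0, with a median of -0.048 to 0.033, and over all fits by edgeR, DESeq2 and limma-voom the adjusted p-values of the pigment genes lay between 0.955 and 1. The log2 fold change without a pool ranged from 0.026 to 0.18 for tyrp1.L, from -0.22 to -0.0034 for pmel.L and from 0.080 to 0.49 for mlana.L. It ranged from -0.10 to 0.00073 for pmel.S, which turned to 0.00073 without 0.75X MMR replicate 1. It ranged from -0.058 to 0.033 for dct.L, which turned to 0.033 without 0.75X MMR replicate 3. Neither gene was called in any fit, and the lowest unadjusted p over these fits was 0.0525, for pmel.L without 0.1X MMR replicate 2.

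With the replicate number as a block, the log2 fold changes were 0.11 for tyrp1.L, -0.026 for dct.L, -0.099 for pmel.L, -0.050 for pmel.S and 0.26 for mlana.L, with 0 called. Pools of the same number did not deviate together, with correlations of deviations of -0.024, -0.032 and -0.10. Between pools of different numbers the correlations were -0.041 to 0.072. The labels do not say whether pools of the same number shared a clutch or batch, and these correlations cannot decide it. Over all genes, 5 were called by edgeR, 34 without a filter, 13 by DESeq2, 16 by limma-voom with surrogate variables, 2 with the block, 2 with L and S counts summed and 1 to 10 without a pool.

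Within a medium the log2 ratio of L to S was 8.13 and 8.35 for tyrp1 and 1.13 and 1.08 for pmel in 0.1X and 0.75X MMR, with p = 0.25, the smallest an exact permutation test on 3 pools allows. Without a pool it was 7.87 to 8.51 for tyrp1 and 1.07 to 1.12 for pmel, with p = 0.0625, the smallest the exact test on 5 pools allows. The difference of the ratio between the media ranged from -0.38 to 1.21 for tyrp1 and from -0.11 to 0.024 for pmel. It turned to -0.15 and -0.38 for tyrp1 without 0.1X MMR replicates 2 and 3, and to 0.024 for pmel without 0.1X MMR replicate 1, and none was called. For the adjusted log2 CPM the spread was taken as an SD put as a percent, another measure than the CV of CPM. By this SD it was 2.97% for dct.L in 0.75X MMR, beside a CV of 6.50%. For tyrp1.L in 0.1X MMR it was 6.80%, beside a CV of 11.2%. The cause of these differences was not tested. The ratio per transcript length was not run. Depth limits tyrp1.S (8 counts) and mlana.L most.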
